A study of Mus musculus with 6 samples.

Results

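The comparison described here sets the heart RNA of mice given ginsenoside Rh2 at 30 mg/kg together with doxorubicin (Rh2-30 mg/kg + Dox) against that of the vehicle group (Control). It uses 2 of the 6 libraries of the study, taken by their labels, and 18328 of the 45777 genes in the table, those with a mean of at least 10 read counts over the 6 libraries. The mice were 6-week-old females of the BALB/c nude strain CAnN.Cg-Foxn1nu/Crl, and every group, Control included, carried a subcutaneous xenograft of MDA-MB-231, a human breast cancer line. Nude mice lack a thymus and so have few mature T cells. Treatment began on day 7 after the tumour cells were given, which the study puts at an age of 7 weeks, and went on for 3 weeks. The age of 6 weeks is therefore not that at which the hearts were taken. Rh2 was given each day in PBS and Tween 80. Doxorubicin was given in saline every other day at 2 mg/kg, to a cumulative dose of 22 mg/kg. The other 4 libraries were doxorubicin alone (Dox), Rh2 alone at the lower dose (Rh2-20 mg/kg) or at the higher dose (Rh2-30 mg/kg), and the lower Rh2 dose with doxorubicin (Rh2-20 mg/kg + Dox), and their values are given to place the pair. Below, "the combination" is the library with the higher Rh2 dose and doxorubicin, and "the lower-dose combination" is that with the lower Rh2 dose and doxorubicin.

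Each library was pooled from 5 hearts and there was 1 library a condition, so the spread between mice was not measured and the pair was not tested. The values below are read counts, followed by the log2 ratio of the combination to Control after TMM normalization, with the 95% interval of that ratio in brackets. The intervals are exact binomial (Clopper-Pearson) and cover counting error only, without the differences between mice. "2-fold" is used as a description of size, as is the place of the library among the 6 (lowest, highest or between). The libraries held 86164411 to 90621002 counts.

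Doxorubicin is an anthracycline that poisons topoisomerase II, the enzyme that passes DNA strands through each other, and it is known for dose-dependent injury of the heart. Most cardiomyocytes of the adult heart do not divide, so RNA of the division machinery in it comes largely from vessel, connective tissue and blood-derived cells. Rh2 is a ginsenoside, a steroid-like saponin of ginseng. The study asked whether Rh2 limits the harm of doxorubicin to the heart.

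In the combination 748 genes (4.08%) were at least 2-fold higher than in Control and 1255 (6.85%) were at least 2-fold lower. With the whole counting interval past 2-fold, 290 (1.58%) were higher and 600 (3.27%) lower. The median log2 ratio over the tested genes was -0.01, and the quartiles were -0.30 and 0.24. The library was the lowest of the 6 in 4238 genes (23.1%) and the highest in 3696 (20.2%). In 938 genes (5.12%) it was both at least 2-fold lower and the lowest of 6, which is 74.7% of the lower genes, and in 329 (1.8%) it was both at least 2-fold higher and the highest, which is 44.0% of the higher genes. Of the genes at least 2-fold higher, 195 had 3 or fewer counts in Control, and of those at least 2-fold lower, 218 had 3 or fewer counts in the combination. The other libraries set against the same Control gave 997 genes higher (5.44%) and 656 lower (3.58%) in Dox, 940 (5.13%) and 663 (3.62%) in the lower-dose combination, 1555 (8.48%) and 299 (1.63%) with Rh2 alone at 30 mg/kg, and 614 (3.35%) and 513 (2.8%) with Rh2 alone at 20 mg/kg. These 5 comparisons share the Control library. In what follows, a percentage in brackets after a list count is the share of its tested members. It is to be set beside the 6.85% lower, 4.08% higher, 23.1% lowest and 20.2% highest over all tested genes.

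**Figure D1:**
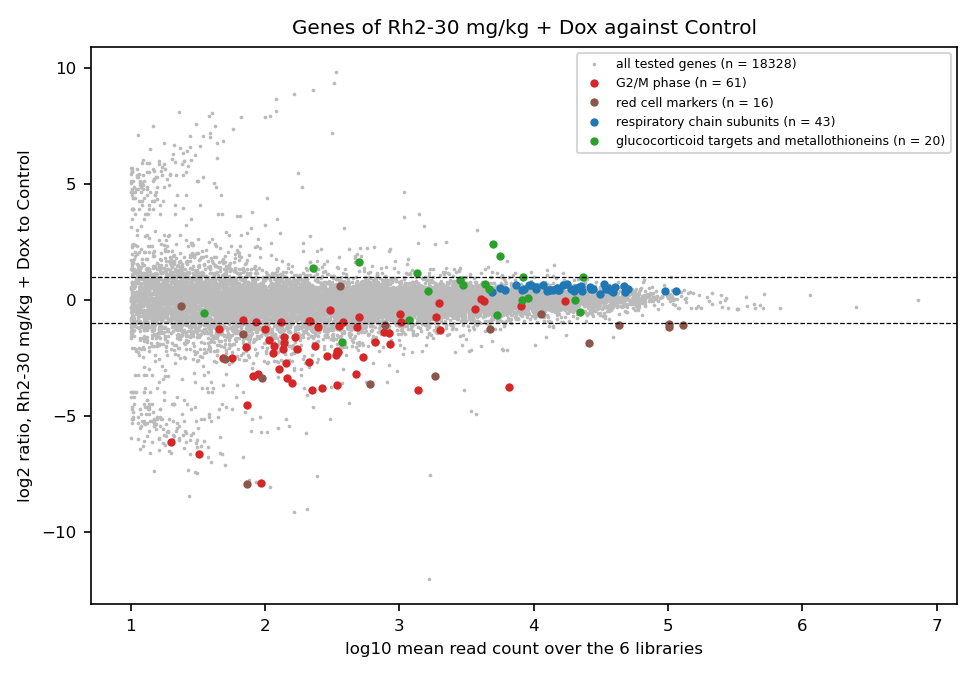
Log2 ratio of Rh2-30 mg/kg + Dox to Control (vertical axis) against the log10 mean read count over the 6 libraries (horizontal axis), with 1 point a gene, dashed lines at 2-fold and 4 gene lists in colour. Genes of G2/M phase and red cell markers lie mostly below the lower dashed line, while the 43 respiratory chain subunits lie in a narrow band between 0.25 and 0.71.

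The tissue was checked first. Cardiomyocyte genes were abundant in both libraries. Myh6, the main myosin heavy chain of the adult mouse heart, had 1111142 counts in Control and 1348308 in the combination, and Ttn, titin, had 7526570 and 7745886. Over 10 cardiomyocyte markers the median log2 ratio was 0.18 and none was 2-fold different.

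Atrial and fat markers set the pair apart from some other libraries. Myl7, the atrial myosin light chain, had 56 counts in Control and 19 in the combination, against 1187 with Rh2 alone at 20 mg/kg, 9134 in Dox, 10613 in the lower-dose combination and 52896 with Rh2 alone at 30 mg/kg. Sln, sarcolipin of the atrium, had 14 counts in Control and 0 in the combination, against 326 to 15768 in the other 4. Both libraries of the pair thus held little atrial RNA, and 16 natriuretic peptide and atrial genes had a median ratio of -0.03, while it was 2.48 with Rh2 alone at 30 mg/kg, 0.83 in Dox and 0.98 in the lower-dose combination.

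Adipoq, the fat hormone adiponectin, had 56 counts in Control and 8 in the combination, and 317 to 3716 in the other 4. Cfd, adipsin, made by fat cells, had 287 and 20, and 989 to 13390 in the other 4. Of 15 white fat markers, 6 were at least 2-fold lower in the combination (40.0%, against 6.85% of all genes) and 0 higher. The list was mixed, with 7 below Control, 6 above it and a median of 0.00. The 6 at least 2-fold lower were Car3 (333 counts in Control and 12 in the combination), Cfd, Adipoq, Cidec (40 and 3), Retn (16 and 0) and Plin1 (10 and 2). The summed normalized counts of the list were 350180 in the combination, 299691 in Control and 280947 to 297820 in the others. Most of that sum came from Lpl, Plin4 and Fabp4, with 124770, 89000 and 60838 counts in Control, so it says little about the 6 lower genes. The abundant members Plin4 and Lpl were above Control, with ratios of 0.45 [0.44, 0.47] and 0.15 [0.14, 0.16]. Of 12 markers of mesothelium, the lining of the outer heart surface, 7 were at least 2-fold lower (58.3%), with a median of -1.25, though Rh2 alone at 20 mg/kg had a median of -1.37 against the same Control. Krt19, a keratin of this lining, had 146 counts in Control and 34 in the combination (-2.15 [-2.75, -1.62]), and between 44 and 318 in the others. The summed normalized counts of the mesothelium list lay between 12276 with Rh2 alone at 20 mg/kg and 15375 with Rh2 alone at 30 mg/kg, and 1 member with other sources in the heart, Clic5, was the largest part of the sum in each library. Scgb1a1, a secretory protein of airway epithelium, had 77 counts in Control, 16 in the combination and 730 with Rh2 alone at 30 mg/kg. The part of RNA from atrium, fat, mesothelium and airway in the ratios below was not tested.

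**Figure D2:**
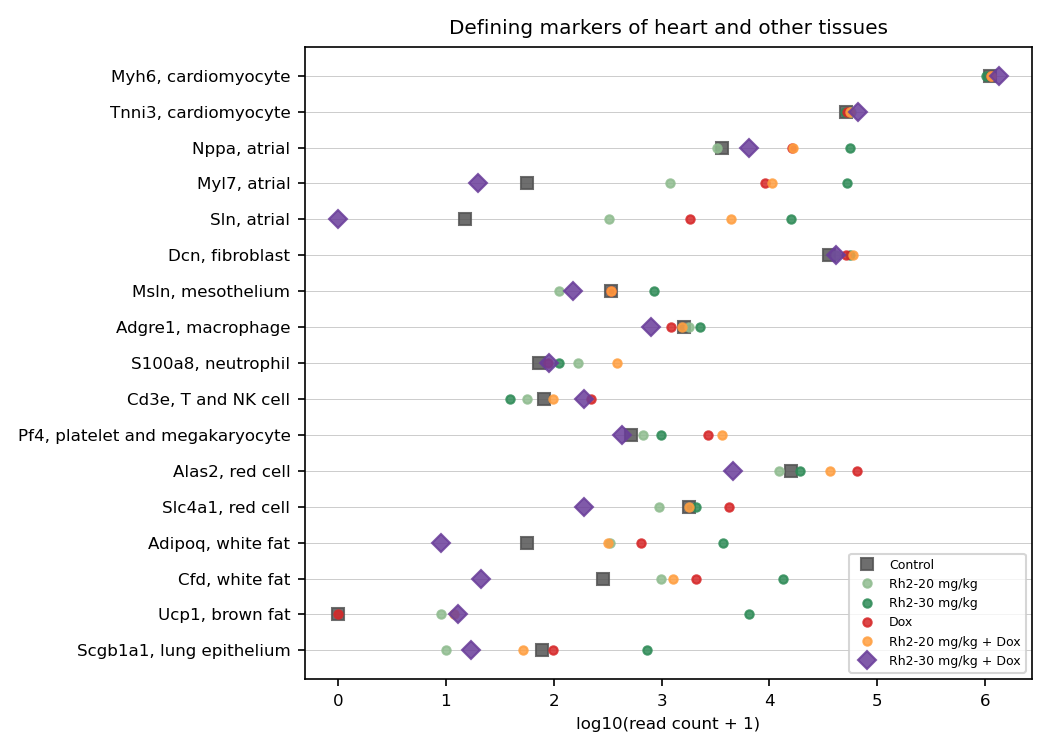
Read counts of 17 defining markers in the 6 libraries, on the scale log10(count + 1), with 1 row a gene and the tissue it marks, Control as squares and Rh2-30 mg/kg + Dox as diamonds. The pair lies at the low end for Myl7, Sln, Adipoq and Cfd, where the other 4 libraries lie higher, and the diamond lies lowest for Alas2 and Slc4a1.

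The division machinery was the list with the highest number of genes at least 2-fold lower, though by share the red cell markers, described below, were higher, with 81.2% against 72.1%. The lists are counted over their tested members, and of the 62 G2/M genes listed 61 were in the table and all of these were tested. Of 61 genes of G2/M phase, the part of the cell cycle that prepares and carries out mitosis, 44 were at least 2-fold lower in the combination and 0 were 2-fold higher, against the 6.85% lower and 4.08% higher over all genes. The median log2 ratio was -1.89, the lowest member stood at -7.91 and the highest at 0.03. In 49 of the 61 the library was the lowest of the 6, against 23.1% of all genes, and the number was also 49 when Rh2 alone at 30 mg/kg was left out of the ranking. As in any bulk sample, fewer cells of a type and less RNA per cell cannot be told apart.

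The genes at the head of this list code for parts of the mitotic apparatus. Top2a, the isoform of topoisomerase II in dividing cells and a target of doxorubicin, had 1646 counts in Control and 117 in the combination (-3.87 [-4.16, -3.60]), with 794 in Dox, 596 in the lower-dose combination, 2238 with Rh2 alone at 20 mg/kg and 2942 with Rh2 alone at 30 mg/kg. Mki67, the Ki-67 protein that coats mitotic chromosomes, had 8783 in Control and 677 in the combination (-3.76 [-3.87, -3.65]), with 3822 in Dox, 2664 in the lower-dose combination, 10708 with Rh2 alone at 20 mg/kg and 13001 with Rh2 alone at 30 mg/kg. For both genes the 3 libraries with doxorubicin were below Control, the 2 with Rh2 alone were above it, and the combination was the lowest.

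Bub1, a kinase of the spindle checkpoint, had 275 counts in Control, 433 with Rh2 alone at 20 mg/kg, 469 with Rh2 alone at 30 mg/kg, 95 in Dox, 50 in the lower-dose combination and 19 in the combination (-3.88 [-4.67, -3.25]). Bub1b, its partner BubR1, had 343, 405, 490, 217, 118 and 25 counts in the same order (-3.81 [-4.49, -3.25]). The same order of libraries was seen again, with the 3 doxorubicin libraries low and the combination lowest. Kif2c, a kinesin that takes microtubules apart at the kinetochore, had 113 counts in Control and 0 in the combination, with 17 in Dox and 35 in the lower-dose combination. With the 0 set to 3 counts, the limit of detection used here, it was at least 39.3-fold lower. That limit leaves out the counting error of Control, and the 95% interval alone reached up to a log2 ratio of -4.97. Kif18b, another mitotic kinesin, had 76 counts in Control and 3 in the combination (-4.51 [-7.03, -3.12]). Ncapg, a subunit of the condensin complex that compacts chromosomes, had 435 and 35 (-3.68 [-4.24, -3.20]), and Iqgap3, a scaffold protein of proliferating cells, had 448 and 34 (-3.76 [-4.33, -3.28]). The exception at the other end was Lbr, the lamin B receptor of the nuclear envelope, which non-dividing cells also use, with 3839 counts in Control and 4077 in the combination (0.03 [-0.04, 0.09]).

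**Figure D3:**
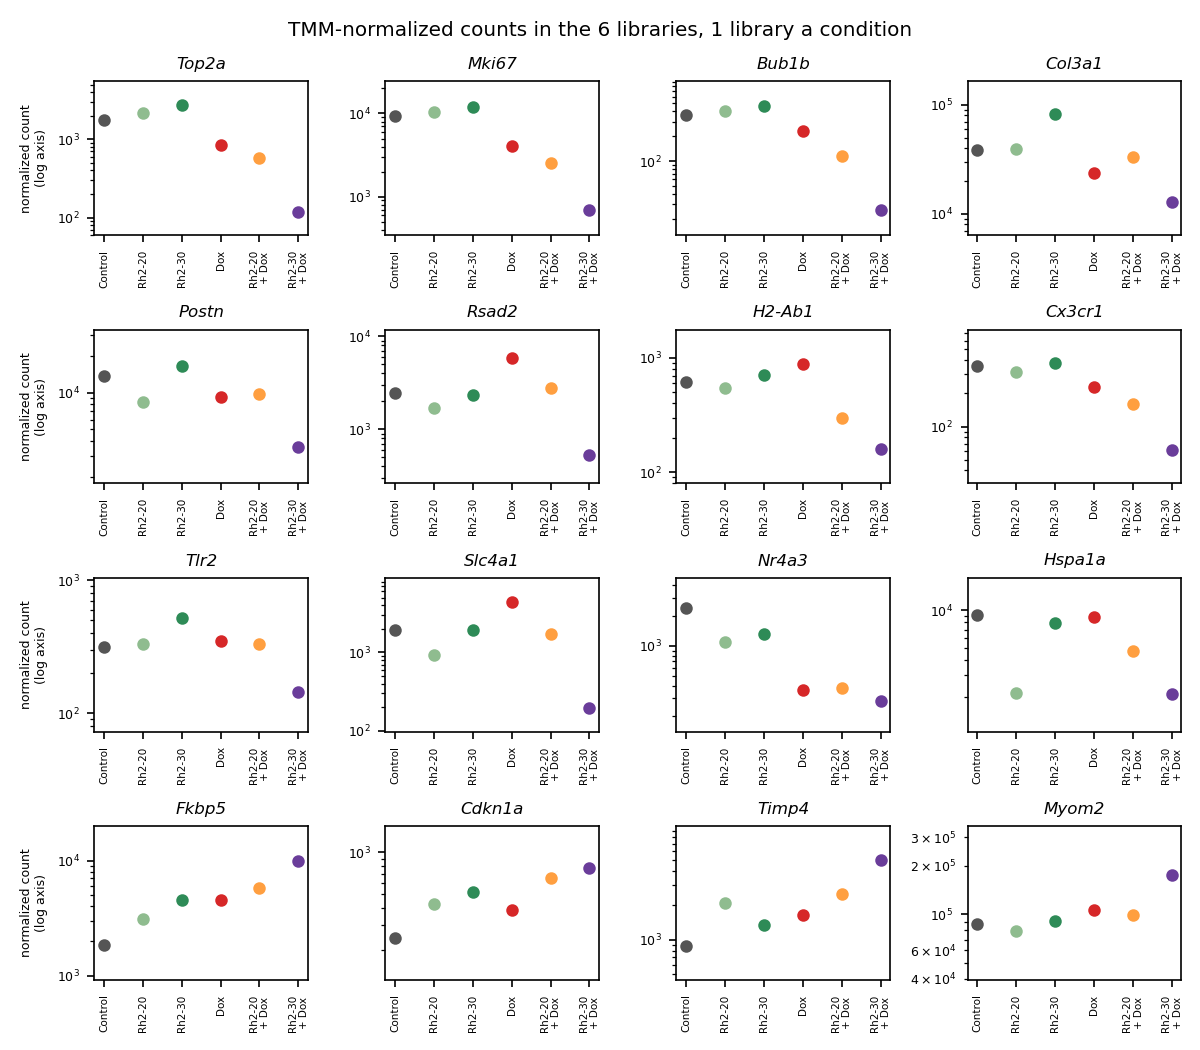
TMM-normalized counts of 16 genes in the 6 libraries, 1 panel a gene and 1 point a library, on a log axis that differs between panels. Rh2-30 mg/kg + Dox is the lowest point in 12 panels (Top2a to Hspa1a) and the highest in 4 (Fkbp5, Cdkn1a, Timp4 and Myom2). For Hspa1a it lies close to Rh2-20 mg/kg, the next lowest library.

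Genes of this class are known to be switched on late in the cell cycle through a pair of short promoter elements, the CHR (TTTGAA) and CCAAT boxes. Both are shown, with matches to these letters or to their reverse complements in capitals, in the 200 bases that end just before a RefSeq transcript start, read 5′ to 3′ on the gene's strand, for 3 of the genes above and for Kntc1, which is described next. The build is GRCm38.p6.

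Top2a, chr11:99024190-99024389, minus strand: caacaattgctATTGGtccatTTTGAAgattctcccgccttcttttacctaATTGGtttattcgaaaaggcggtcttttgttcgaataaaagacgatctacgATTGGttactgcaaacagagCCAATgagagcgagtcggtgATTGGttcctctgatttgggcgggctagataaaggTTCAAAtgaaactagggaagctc

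Mki67, chr7:135716380-135716579, minus strand: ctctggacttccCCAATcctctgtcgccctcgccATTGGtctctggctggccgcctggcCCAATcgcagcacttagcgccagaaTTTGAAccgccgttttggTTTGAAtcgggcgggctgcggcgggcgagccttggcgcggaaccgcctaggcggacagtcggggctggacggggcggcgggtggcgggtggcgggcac

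Ncapg, chr5:45669725-45669924, plus strand: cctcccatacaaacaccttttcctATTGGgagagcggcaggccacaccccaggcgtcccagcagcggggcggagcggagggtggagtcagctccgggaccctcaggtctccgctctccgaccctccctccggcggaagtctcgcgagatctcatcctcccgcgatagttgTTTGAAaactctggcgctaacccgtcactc

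Kntc1, chr5:123749526-123749725, plus strand: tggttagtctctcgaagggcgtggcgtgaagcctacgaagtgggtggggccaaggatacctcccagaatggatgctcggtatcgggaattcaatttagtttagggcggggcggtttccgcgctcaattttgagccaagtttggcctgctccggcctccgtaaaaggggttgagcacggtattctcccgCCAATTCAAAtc

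The Top2a window held 2 TTTGAA and 5 CCAAT matches and the Mki67 window 2 and 3, while Ncapg and Kntc1 had 1 of each, overlapping by 1 base in Kntc1. RefSeq promoter windows (250 bases before to 50 after a start) were found for 52 of the 61 G2/M genes, 57 windows in all. TTTGAA on either strand stood in 63.2% of them, against 17.9% of all 32851 promoter windows, and both elements stood in 56.1%, against 6.95%. Among the G2/M genes at least 2-fold lower, 28 of 38 windows held TTTGAA (73.7%), and among the others 8 of 19 did (42.1%). The windows of the S phase list held it in 17.4%, close to the share of all promoters. A match of letters is no evidence that a factor binds there.

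Genes of the kinetochore, where chromosomes attach to the spindle, were less uniform. Of 36, 12 were at least 2-fold lower (33.3%, against 6.85% of all genes) and 0 higher, with a median of -0.52. The library was the lowest of 6 in 21 (58.3%, against 23.1%). Kntc1 is a part of the complex that recruits dynein to kinetochores. It was among the 10 largest differences downward of genes with at least 20 counts in both libraries. Genes with provisional names (Gm, LOC or Rik) were left out of that ranking. It had 843 counts in Control, 944 with Rh2 alone at 20 mg/kg and 1169 with Rh2 alone at 30 mg/kg. Dox held 193, the lower-dose combination 173 and the combination 76 (-3.52 [-3.89, -3.19]). Knl1, the scaffold of the outer kinetochore, had 942 counts in Control and 194 in the combination (-2.34 [-2.57, -2.12]), but 1139 in Dox and 1039 in the lower-dose combination, so that 1 doxorubicin library alone was below Control by 2-fold. Kif22, a chromosome-arm kinesin, had 155 and 26 counts (-2.61 [-3.30, -2.03]), and Spc25, of the Ndc80 complex, 155 and 35 (-2.19 [-2.78, -1.67]). Zwint, which joins the same scaffold, had 1745 counts in Control and 2092 in the combination (0.20 [0.11, 0.29]), and it was highest of 6 there.

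Of 56 genes of S phase and DNA replication, 16 were at least 2-fold lower (28.6%) and 0 higher, with a median of -0.42. Dtl, which directs the destruction of replication factors after use, had 252 counts in Control, 359 with Rh2 alone at 20 mg/kg, 425 with Rh2 alone at 30 mg/kg, 103 in Dox, 81 in the lower-dose combination and 15 in the combination (-4.09 [-4.99, -3.38]). E2f1, a transcription factor that drives entry into S phase, had 195 in Control and 32 in the combination (-2.65 [-3.26, -2.12]). E2f2 had 190 and 28 (-2.80 [-3.45, -2.25]), but 524 in Dox. Dox was also the library with the most red cell RNA, and the part of that RNA in the E2f2 counts was not tested. Gmnn, geminin, an inhibitor of repeated replication, went the other way, with 1564 and 2689 counts (0.72 [0.63, 0.81]), as did Fen1, a flap nuclease of replication and repair, with 159 and 267 (0.69 [0.40, 0.98]). Both were highest of 6 in the combination.

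Among the same lists in the other libraries, the G2/M median was -0.81 in Dox (25 of 61 at least 2-fold lower than Control), -1.11 in the lower-dose combination (34 of 61), 0.12 with Rh2 alone at 20 mg/kg (0 of 61) and 0.39 with Rh2 alone at 30 mg/kg (0 of 61). The 3 libraries with doxorubicin were below the Control they share and the 2 without were not. For the kinetochore list the median was -0.25 in Dox, -0.57 in the lower-dose combination and -0.52 in the combination, so the combination did not hold the lowest. For the S phase list the medians of the 3 doxorubicin libraries lay closer together, at -0.39 in Dox, -0.32 in the lower-dose combination and -0.42 in the combination.

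**Figure D4:**
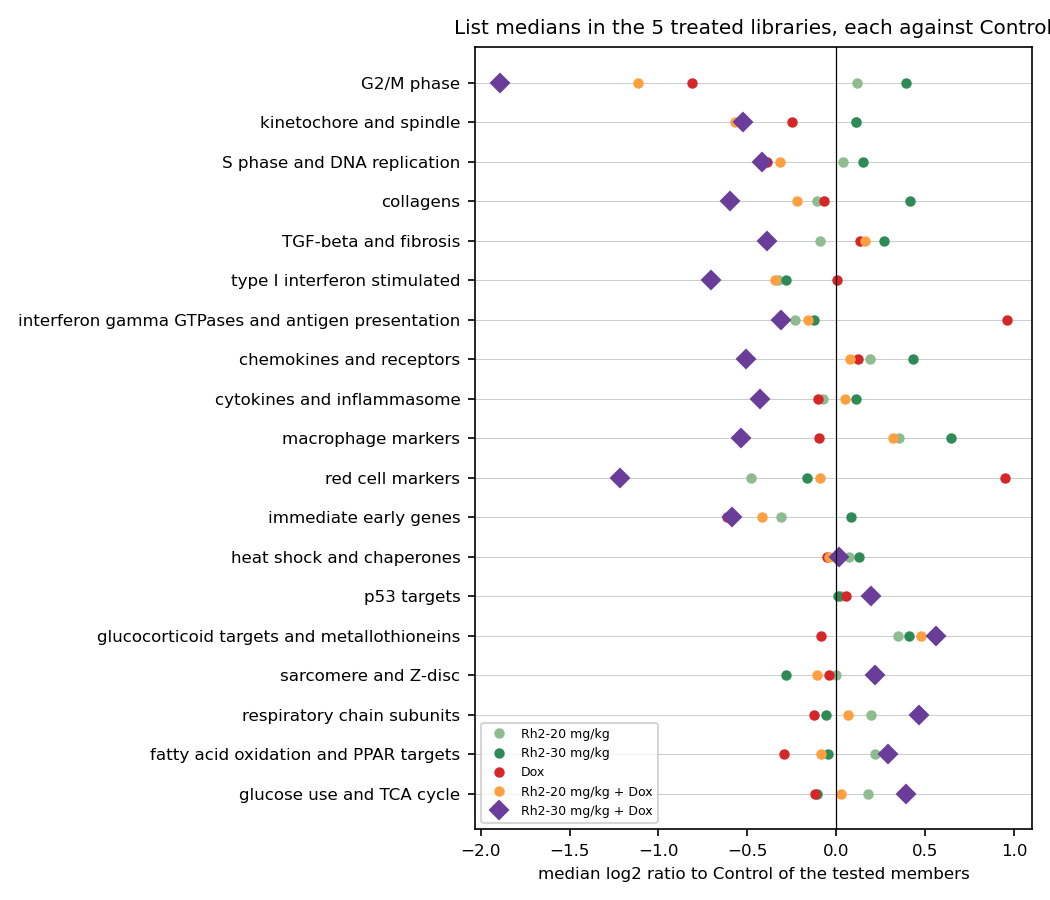
Median log2 ratio to Control of the tested members of 19 gene lists, 1 row a list, in the 5 treated libraries, each set against the same Control. Rh2-30 mg/kg + Dox (diamonds) holds the lowest median in the rows of G2/M phase, collagens, TGF-beta and fibrosis, type I interferon, chemokines, macrophage and red cell markers, and the highest in the rows of respiratory chain, glucose use and sarcomere.

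Among p53 targets with at least 50 counts on average, Cdkn1a had the highest ratio. It codes for p21, an inhibitor of the kinases that drive the cell cycle, and had 230 counts in Control, 431 with Rh2 alone at 20 mg/kg, 559 with Rh2 alone at 30 mg/kg, 368 in Dox, 681 in the lower-dose combination and 753 in the combination (1.65 [1.44, 1.87]). Control was the lowest of the 6 and the combination the highest, and Rh2 alone also stood above Control. Of 36 p53 targets, Cdkn1a included, 2 were at least 2-fold higher (5.56%, against 4.08% of all genes) and 1 lower (2.78%, against 6.85%). The median was 0.19, and the highest ratio of the list, 1.88, was that of a member averaging fewer than 50 counts. Fas, a death receptor, had 3121 and 6409 counts (0.98 [0.92, 1.04]). Sesn1, a sestrin that restrains growth signals, had 10438 and 21329 (0.97 [0.94, 1.004]). Trp53inp1, a p53 cofactor, had 911 and 1821 (0.94 [0.82, 1.05]). Each of these 3 was highest of 6 by normalized count in the combination. Tnfrsf10b, the TRAIL death receptor, had 836 and 420 (-1.05 [-1.23, -0.88]) and was the lowest of 6.

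The other CDK inhibitors did not follow Cdkn1a as a group. Cdkn1b, p27, had 1098 counts in Control and 1281 in the combination (0.16 [0.04, 0.28]), and Cdkn1c, p57, had 111 and 164 (0.50 [0.15, 0.86]). Cdkn3, a phosphatase listed with them that is made in dividing cells, had 57 and 11 (-2.38 [-3.52, -1.49]).

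Of 34 genes of the apoptosis machinery, 2 were at least 2-fold higher (5.88%, against 4.08% of all genes) and 4 lower (11.8%, against 6.85%), with a median of -0.24. Casp1, the inflammasome's protease, had 1055 to 1210 counts in 5 libraries and 497 in the combination (-1.31 [-1.47, -1.16]), which stood apart from the rest. Bcl2l1, which codes for the survival protein Bcl-xL, had 4233 counts in Control, 7412 with Rh2 alone at 20 mg/kg, 7585 with Rh2 alone at 30 mg/kg, 5853 in Dox, 8104 in the lower-dose combination and 9229 in the combination (1.06 [1.01, 1.12]), with Control the lowest.

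Top2b, the topoisomerase II of non-dividing cells such as cardiomyocytes and likewise a target of doxorubicin, had 28805 counts in Control and 26384 in the combination (-0.19 [-0.21, -0.16]), far from the ratio of Top2a.

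Genes of energy metabolism stood slightly higher in most members, and in each member of the respiratory chain. All 43 tested nuclear-encoded subunits of the mitochondrial respiratory chain were above Control in the combination, against 48.7% of all genes, and all 43 were the highest of the 6 libraries, against 20.2%. Their log2 ratios ran from 0.25 to 0.71 with a median of 0.47, and 0 of 43 reached 2-fold. In the other libraries the median was 0.20 with Rh2 alone at 20 mg/kg, -0.06 with Rh2 alone at 30 mg/kg, -0.13 in Dox and 0.07 in the lower-dose combination. Beside this, the median over the cardiomyocyte markers was 0.18 in the same library, and whether the share of cardiomyocyte RNA plays a part was not tested.

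Uqcrq, a subunit of complex III, had 13730 counts in Control, 18263 with Rh2 alone at 20 mg/kg, 16426 with Rh2 alone at 30 mg/kg, 15912 in Dox, 17991 in the lower-dose combination and 23430 in the combination (0.71 [0.68, 0.74]). Cox5a, of complex IV, had 26857, 33524, 28163, 32963, 34730 and 44901 counts in the same order (0.68 [0.66, 0.70]). In both, Control was the lowest and the combination stood above the other 4 treated libraries. Ndufa9 and Ndufs4, of complex I, had ratios of 0.66 [0.63, 0.70] and 0.66 [0.61, 0.71].

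All 37 genes of glucose use and the TCA cycle were also above Control, 30 of them highest of 6 (81.1%), with a median of 0.39. Idh2, a mitochondrial isocitrate dehydrogenase, had 34921 counts in Control and 61664 in the combination, with 33600 to 44791 in the other 4 (0.76 [0.74, 0.78]). Pdk2, a kinase that restrains pyruvate dehydrogenase, had 9234 and 15275 (0.67 [0.63, 0.70]).

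Of 41 genes of fatty acid oxidation and PPAR targets, 34 were above Control, 7 below it and 24 highest of 6 (58.5%), with a median of 0.29. In this list 2 were at least 2-fold lower (4.88%). Ppara, the nuclear receptor that drives fatty acid oxidation, had 2002 counts in Control, 2700 with Rh2 alone at 20 mg/kg, 2834 with Rh2 alone at 30 mg/kg, 2920 in Dox, 3320 in the lower-dose combination and 4128 in the combination (0.98 [0.91, 1.06]). Acadm, the medium-chain acyl-CoA dehydrogenase, had 37967 and 62133 (0.65 [0.63, 0.67]), and Ppargc1a, the coactivator PGC-1α, had 20757 and 36723 (0.76 [0.74, 0.79]), though Dox held 37700. Angptl4, a lipase inhibitor that is itself a PPAR target, went the other way, with 449 counts in Control, 211 in Dox, 186 in the lower-dose combination and 134 in the combination (-1.80 [-2.09, -1.52]). Ucp3, a mitochondrial carrier of muscle, had 3861 counts in Control, 3191 with Rh2 alone at 20 mg/kg, 4203 with Rh2 alone at 30 mg/kg, 966 in Dox, 945 in the lower-dose combination and 1693 in the combination (-1.25 [-1.33, -1.17]). For Ucp3 the 3 doxorubicin libraries lay below the other 3, and the combination was the nearest of them to Control.

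Of 36 sarcomere and Z-disc genes, 29 were above Control and 27 highest of 6, with a median of 0.22. Myom2, an M-band protein that crosslinks myosin, was the most abundant gene of the table to be 2-fold higher. It had 81864 counts in Control, 80434 with Rh2 alone at 20 mg/kg, 98104 with Rh2 alone at 30 mg/kg, 101995 in Dox, 103198 in the lower-dose combination and 172068 in the combination (1.01 [0.999, 1.02]). Xirp1, an actin-binding protein of the intercalated disc, had 9402 and 16897 (0.78 [0.75, 0.82]), and Actc1, cardiac actin, 64473 and 98867 (0.56 [0.54, 0.57]). Acta1, skeletal actin, which is associated with cardiac stress, had 42807 counts in Control, 43715 with Rh2 alone at 20 mg/kg, 28159 with Rh2 alone at 30 mg/kg, 27279 in Dox, 26915 in the lower-dose combination and 27443 in the combination (-0.70 [-0.72, -0.68]). It was lower by like amounts in 4 of the 5 treated libraries.

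Of 37 genes of calcium handling and ion channels, 1 was 2-fold higher (2.7%) and 2 lower (5.41%), both under the shares over all genes, with a median of 0.09. Kcne1, a subunit of the slow potassium channel, had 127 and 266 counts (1.003 [0.70, 1.32]), and Kcnj11, of the ATP-sensitive potassium channel, 1225 and 2254 (0.82 [0.72, 0.92]). Of the lower genes, Sln, of the atrium, is given above.

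Of 19 genes of cardiac atrophy and ubiquitin ligases, 13 were above Control and 11 highest of 6 (57.9%), with a median of 0.25. Bnip3, a mitophagy receptor, had 3745 and 7785 counts (0.99 [0.94, 1.05]), and Klf15, a transcription factor of muscle metabolism, had 1921 and 3629 (0.86 [0.78, 0.94]). Mstn, myostatin, had 115 and 53 (-1.17 [-1.68, -0.70]), with 43 in Dox and 58 in the lower-dose combination. Fbxo32, the atrophy ligase atrogin-1, had 11163 and 8272 (-0.49 [-0.53, -0.45]).

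The genes that steroid hormones of the adrenal gland induce stood higher as a list. Of 20 glucocorticoid targets and metallothioneins, 6 were at least 2-fold higher, against 4.08% of all genes, 1 was lower, and 10 were highest of 6. The median was 0.56 and in the other libraries it was 0.35 with Rh2 alone at 20 mg/kg, 0.41 with Rh2 alone at 30 mg/kg, -0.09 in Dox and 0.48 in the lower-dose combination.

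Fkbp5, a chaperone of the glucocorticoid receptor, had 1730 counts in Control, 3171 with Rh2 alone at 20 mg/kg, 4889 with Rh2 alone at 30 mg/kg, 4333 in Dox, 5981 in the lower-dose combination and 9770 in the combination (2.44 [2.36, 2.51]). Map3k6, a stress kinase, had 2634, 4317, 4515, 4934, 7125 and 10124 counts in the same order (1.88 [1.82, 1.94]). In both genes Control was the lowest, each single agent was higher, and the combination with the higher Rh2 dose was the highest. Zbtb16, a zinc finger protein, had 18224 counts in Control, 38215 in the combination and 19002 to 25678 in the other 4 (1.01 [0.98, 1.03]). Lcn2, lipocalin 2, which neutrophils also make, had 111 and 306 (1.40 [1.08, 1.73]), and Ddit4, an inhibitor of mTOR signalling that is also in the stress response list, had 744 and 1767 (1.19 [1.06, 1.31]). The 1 gene of the list at least 2-fold lower was Angptl4, given above with the PPAR targets, with 449 and 134 (-1.80 [-2.09, -1.52]). The metallothionein Mt2 was also below Control, with 1333 and 772 (-0.85 [-0.98, -0.72]) and 421 in Dox.

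Other stress lists moved in few members. Of 31 heat shock genes and chaperones, 2 were at least 2-fold lower (6.45%, near the 6.85% over all genes) and 0 higher. They were Hspa1a and Hspa1b, near-identical genes of inducible HSP70 whose reads can be shared. Hspa1a had 8628 counts in Control, 2203 with Rh2 alone at 20 mg/kg, 8509 with Rh2 alone at 30 mg/kg, 8449 in Dox, 4896 in the lower-dose combination and 2051 in the combination (-2.13 [-2.20, -2.06]). The combination and Rh2 alone at 20 mg/kg held the fewest counts and the lower-dose combination lay between, while Dox and Rh2 alone at 30 mg/kg were near Control. Hspa9, the mitochondrial HSP70, had 46139 and 66509 (0.47 [0.45, 0.48]). Of 25 genes of the integrated stress response, Ddit4 alone was 2-fold higher (4.0%) and Atf3 alone 2-fold lower (4.0%), and the median was 0.04. Atf3 had 311 and 91 counts (-1.83 [-2.19, -1.49]). Of 40 antioxidant and glutathione genes the median was 0.17, and Gstm1, a glutathione transferase, had 14132 and 26809 (0.86 [0.83, 0.89]).

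Of 27 immediate early genes, which cells switch on within minutes of a stimulus, 9 were at least 2-fold lower (33.3%) and 0 higher, with a median of -0.58. The median was -0.61 in Dox, -0.42 in the lower-dose combination, -0.31 with Rh2 alone at 20 mg/kg and 0.09 with Rh2 alone at 30 mg/kg. Nr4a3, an orphan nuclear receptor, had 2232 counts in Control, 1111 with Rh2 alone at 20 mg/kg, 1416 with Rh2 alone at 30 mg/kg, 344 in Dox, 396 in the lower-dose combination and 276 in the combination (-3.07 [-3.26, -2.90]). The 3 doxorubicin libraries were close to each other and well below the other 3. Egr3, a zinc finger factor, had 318 and 42 counts (-2.97 [-3.48, -2.51]), and Fosb, an AP-1 subunit, had 62 and 15 (-2.07 [-3.03, -1.28]).

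Matrix genes were lower. Of 32 collagen genes, 6 were at least 2-fold lower (18.8%, against 6.85% of all genes) and 1 higher (3.12%, against 4.08%). In 19 the combination was lowest of 6 (59.4%, against 23.1%), and the median was -0.60. The median was -0.11 with Rh2 alone at 20 mg/kg, 0.41 with Rh2 alone at 30 mg/kg, -0.07 in Dox and -0.22 in the lower-dose combination. Col3a1, a fibrillar collagen of fibroblasts, had 36000 counts in Control, 39859 with Rh2 alone at 20 mg/kg, 87731 with Rh2 alone at 30 mg/kg, 22452 in Dox, 34068 in the lower-dose combination and 12509 in the combination (-1.59 [-1.62, -1.56]). Col1a1, of the main fibrillar collagen, had 13047, 13918, 27072, 10381, 13335 and 6043 counts in that order (-1.17 [-1.22, -1.13]). Rh2 alone at 30 mg/kg was the highest and the combination the lowest for both. Col15a1, a basement membrane collagen, had 20972 counts in Control and 7765 in the combination (-1.49 [-1.53, -1.46]). Col6a6, a chain of the microfibrillar collagen VI, went the other way, with 2470 and 4206 (0.71 [0.64, 0.78]).

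Of 45 genes of TGF-beta signalling and fibrosis, 8 were at least 2-fold lower (17.8%), 1 higher (2.22%) and 35 lowest of 6 (77.8%), with a median of -0.39. Postn, periostin, made by activated fibroblasts, had 12890 counts in Control, 8472 with Rh2 alone at 20 mg/kg, 17667 with Rh2 alone at 30 mg/kg, 8773 in Dox, 10032 in the lower-dose combination and 3514 in the combination (-1.94 [-1.99, -1.88]). Meox1, a transcription factor of activated fibroblasts, had 618 and 183 (-1.81 [-2.06, -1.58]), with 445 to 727 in the others. Thbs1, thrombospondin 1, also a product of platelets, had 3832 counts in Control, 1163 in the combination (-1.78 [-1.88, -1.69]) and 12783 in the lower-dose combination. Thbs2, its relative, was the 1 gene 2-fold higher, with 1500 counts in Control, 2333 with Rh2 alone at 20 mg/kg, 3463 with Rh2 alone at 30 mg/kg, 2786 in Dox, 2915 in the lower-dose combination and 3749 in the combination (1.26 [1.17, 1.35]).

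Beside these, 14 fibroblast markers had a median of -0.69, with 11 lowest of 6 (78.6%) and 3 at least 2-fold lower (21.4%), namely Postn, Col3a1 and Col1a1, already given. Their summed normalized counts were 203018 in Control and 161446 in the combination against 207482 to 336413 in the others. Of the 14, 3 were above Control and 11 below. Pi16, of adventitial fibroblasts, had a ratio of -0.90 [-0.98, -0.82]. Among the 3 above were Pdgfra, the growth factor receptor of fibroblasts, with 7254 and 8374 counts (0.15 [0.10, 0.19]), and Gsn, gelsolin, with 50679 and 64187 (0.28 [0.26, 0.30]). The part of fibroblast number in the matrix ratios was not tested.

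The enzymes and inhibitors that turn matrix over did not differ as a list. Of 20 tested metalloproteinases and Timps, 3 were at least 2-fold higher (15.0%), 0 lower, and the median was 0.00. Timp4, the inhibitor abundant in heart, had 831 counts in Control, 2129 with Rh2 alone at 20 mg/kg, 1443 with Rh2 alone at 30 mg/kg, 1554 in Dox, 2606 in the lower-dose combination and 4904 in the combination (2.50 [2.39, 2.61]). It was 5.65-fold above Control and above each other library. Timp3 had 8443 and 13999 (0.67 [0.63, 0.71]), Timp2 3357 and 3643 (0.06 [-0.01, 0.13]) and Timp1 178 and 120 (-0.63 [-0.98, -0.29]). Mmp2, the gelatinase of fibroblasts, had 6470 and 6286 counts (-0.10 [-0.15, -0.05]), Mmp14, which activates it, 816 and 819 (-0.06 [-0.20, 0.09]), and Mmp9, the gelatinase of leukocytes, 60 and 77 (0.30 [-0.21, 0.81]). The intervals of Timp2, Mmp14 and Mmp9 include 0. Mmp8, the collagenase of neutrophils, had 29 counts in Control, 98 with Rh2 alone at 20 mg/kg, 51 with Rh2 alone at 30 mg/kg, 42 in Dox, 274 in the lower-dose combination and 167 in the combination (2.45 [1.89, 3.09]), and it belongs to the neutrophil list described below.

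**Figure D5:**
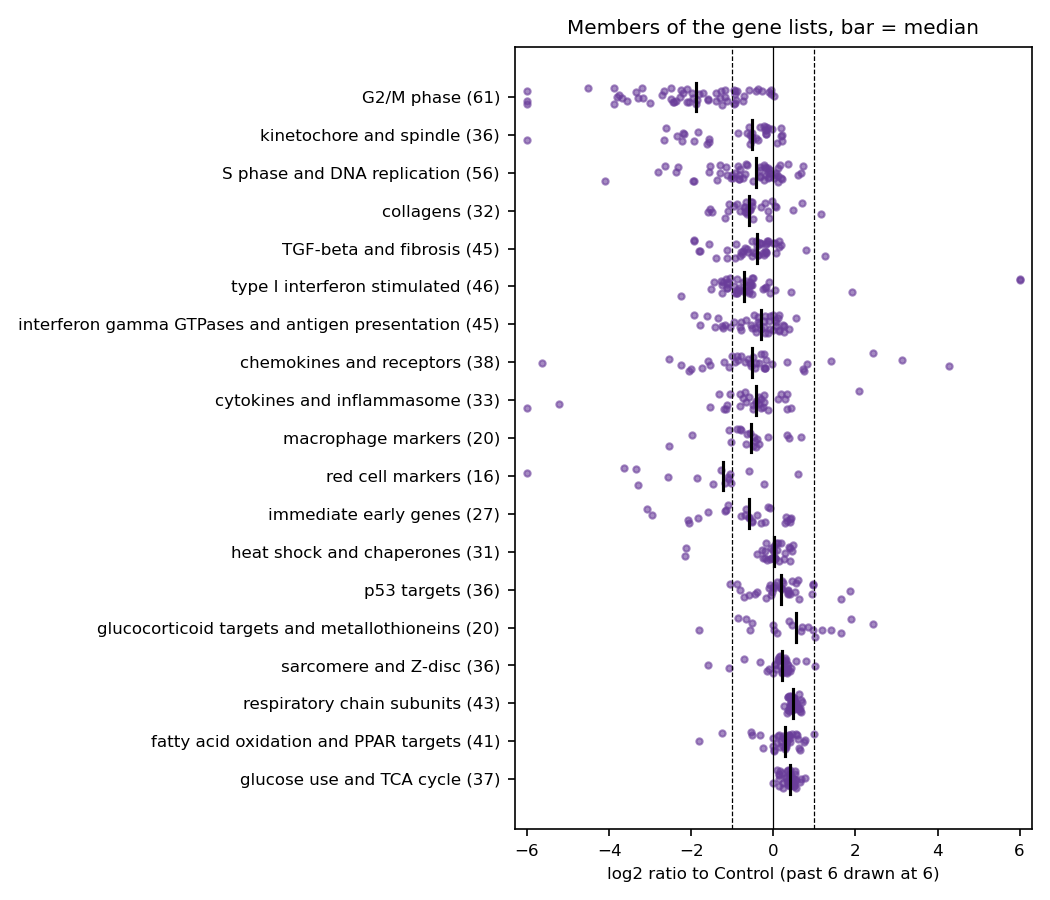
Log2 ratios of Rh2-30 mg/kg + Dox to Control for the tested members of 19 gene lists (number in brackets), 1 point a gene, with a black bar at the median and dashed lines at 2-fold. The bars stand at -1.89 for G2/M phase, -1.22 for red cell markers and -0.71 for type I interferon genes, and at 0.47 and 0.56 for the respiratory chain and the glucocorticoid targets.

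Immune genes were lower in most lists, and most neutrophil markers were not. Of 46 genes that type I interferon stimulates, 13 were at least 2-fold lower (28.3%), 3 higher (6.52%) and 39 lowest of 6 (84.8%), and the median was -0.71. The median was 0.01 in Dox, -0.34 in the lower-dose combination, -0.33 with Rh2 alone at 20 mg/kg and -0.28 with Rh2 alone at 30 mg/kg. Rsad2, the antiviral enzyme viperin, had 2349 counts in Control, 1743 with Rh2 alone at 20 mg/kg, 2490 with Rh2 alone at 30 mg/kg, 5605 in Dox, 2898 in the lower-dose combination and 516 in the combination (-2.25 [-2.39, -2.11]). Dox held the most and the combination the least. Oasl2, of the antiviral synthetase family, had 3464 and 1255 (-1.53 [-1.62, -1.43]), Zbp1, a sensor of unusual nucleic acids, 454 and 175 (-1.43 [-1.70, -1.18]), and Ifi44 had 1712 and 743 (-1.26 [-1.39, -1.14]).

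The 3 genes at least 2-fold higher in this list need care. Oas1a, an antiviral synthetase, had 0 counts in Control, Rh2 alone at 20 mg/kg and Rh2 alone at 30 mg/kg, 850 in Dox, 732 in the lower-dose combination and 447 in the combination. Oas1g, its neighbour in a family of similar genes, had 0, 0, 0, 382, 375 and 234. With Control set to 3 counts they were at least 143-fold and 74.8-fold higher, and the 95% intervals alone began at log2 ratios of 6.85 and 5.91. Oas1b, another of the family, named after its values were seen, had 136 counts in Control, 126 to 156 with Rh2 alone, 1120 in Dox, 763 in the lower-dose combination and 533 in the combination (1.91 [1.64, 2.19]). All 3 were higher in each doxorubicin library than in each library without it. Near-identical copies can trade reads in an assembly-based count, so the assignment to these members is uncertain.

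Of 45 genes of interferon gamma GTPases and antigen presentation, 9 were at least 2-fold lower (20.0%) and 0 higher, with a median of -0.31. In Dox the median was 0.96 with 19 at least 2-fold higher, against 5.44% of all genes there. H2-Ab1, an MHC class II chain, had 580 counts in Control, 557 with Rh2 alone at 20 mg/kg, 754 with Rh2 alone at 30 mg/kg, 840 in Dox, 310 in the lower-dose combination and 157 in the combination (-1.94 [-2.21, -1.69]). Ciita, the master regulator of class II genes, had 354 and 121 counts (-1.61 [-1.92, -1.31]), and Cd74, the invariant chain, 1925 and 754 (-1.41 [-1.54, -1.29]). The class II genes H2-Eb1, H2-Ab1, Cd74 and Ciita were thus all lower. Of the 45, 12 were above Control, and the highest ratios were those of 2 interferon gamma GTPases. Gbp10 had 4650 counts in Control, 18204 in Dox and 7119 in the combination (0.55 [0.50, 0.61]), and Gbp6 had 6851, 24568 and 9281 (0.38 [0.33, 0.42]).

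Of 38 chemokines and chemokine receptors, 11 were at least 2-fold lower (28.9%) and 4 higher (10.5%), 22 were lowest of 6 (57.9%), and the median was -0.51. Cx3cr1, the fractalkine receptor of resident myeloid cells, had 336 counts in Control, 319 with Rh2 alone at 20 mg/kg, 404 with Rh2 alone at 30 mg/kg, 218 in Dox, 165 in the lower-dose combination and 60 in the combination (-2.54 [-2.97, -2.15]). Its lowest count was in the combination by a wide margin. Ccl7, a monocyte attractant, had 142 and 31 (-2.24 [-2.87, -1.69]) and Cxcl1, a neutrophil attractant, had 446 and 116 (a log2 ratio of -1.999, with an interval of -2.31 to -1.71). Higher were Cxcr2, the neutrophil receptor, with 81 and 223 (1.39 [1.03, 1.79]), and Cxcl13, the B cell attractant, with 2 and 22 counts (3.13 [1.37, 6.53]).

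Of 33 cytokines and inflammasome genes, 8 were at least 2-fold lower (24.2%) and 1 higher (3.03%), with a median of -0.43. Tnf had 91 counts in Control, 50 with Rh2 alone at 20 mg/kg, 50 with Rh2 alone at 30 mg/kg, 39 in Dox, 35 in the lower-dose combination and 32 in the combination (-1.55 [-2.20, -0.97]), so Control was the highest. Il18 had 58 and 40 counts (-0.59 [-1.22, 0.01]) and Il1a 7 and 3 (-1.16 [-3.87, 0.85]), differences that were not detectable at this depth. Casp4, an inflammatory caspase, had 1667 and 760 (-1.19 [-1.32, -1.07]), and Nlrc4, an inflammasome sensor, 291 and 145 (-1.06 [-1.36, -0.77]). Il1r2, a decoy receptor for interleukin 1 that neutrophils carry, was higher, with 26 and 117 (2.09 [1.49, 2.78]).

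Of 23 Toll-like receptors and adaptors, which sense microbial molecules, 1 was at least 2-fold lower (4.35%, under the 6.85% over all genes). In 12 the combination was lowest of 6 (52.2%, against 23.1%), and the median was -0.25. Tlr2, a receptor of bacterial lipoproteins, had 298 counts in Control, 340 with Rh2 alone at 20 mg/kg, 557 with Rh2 alone at 30 mg/kg, 334 in Dox, 345 in the lower-dose combination and 143 in the combination (-1.12 [-1.42, -0.83]). Tlr4, the endotoxin receptor, had 4907 and 4304 (-0.25 [-0.31, -0.19]), Tlr3, a sensor of double-stranded RNA, 3013 and 2721 (-0.21 [-0.28, -0.13]), and Tlr7, a sensor of single-stranded RNA, 559 and 656 (0.17 [0.00, 0.34]). Tlr1 and Tlr9 had ratios of -0.77 [-1.02, -0.53] and -0.67 [-1.07, -0.28].

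The cell markers of these lists moved as well. Of 20 macrophage markers, 4 were at least 2-fold lower, 15 were lowest of 6 and the median was -0.54. The summed normalized counts were 39732 in the combination, 48465 in Control and 44679 to 70096 in the others. Adgre1, the F4/80 antigen, had 1610 and 798 counts (-1.07 [-1.20, -0.95]) and Aif1, IBA1, had 276 and 72 (-1.99 [-2.39, -1.62]). Of the 20, 17 were below Control and 3 above it. Lyve1 and Mertk, which resident macrophages carry, were among the 3, with 613 and 1025 (0.68 [0.53, 0.83]) and 3134 and 4239 (0.37 [0.31, 0.44]), while Timd4 and Cbr2, also of resident macrophages, had ratios of -0.82 [-1.24, -0.41] and -0.50 [-0.63, -0.37]. Of 15 markers of B and plasma cells, 6 were at least 2-fold lower (40.0%), with a median of -0.64. Of 13 neutrophil markers, 6 were at least 2-fold higher (46.2%) and 0 lower, with 10 above Control and 3 below it. Among the 6 was Ngp, with 0 and 14 counts. The median was 0.95, below the 1.94 of the lower-dose combination and the 1.13 of Rh2 alone at 20 mg/kg. Hdc had 928 and 575 counts (-0.75 [-0.90, -0.60]), Ltf 42 and 22 (-0.98 [-1.81, -0.22]) and S100a8 72 and 90 (0.26 [-0.20, 0.73]). The part of these cell types in the chemokine, antigen presentation and cytokine ratios was not tested.

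T cell genes were few, in a strain with few T cells. Of 24 T and NK cell markers 14 were tested, and Cd3d and Cd8b1 had 0 counts in all 6 libraries. Cd3e, a chain of the T cell receptor complex, had 80 counts in Control, 55 with Rh2 alone at 20 mg/kg, 38 with Rh2 alone at 30 mg/kg, 220 in Dox, 97 in the lower-dose combination and 189 in the combination (1.17 [0.79, 1.58]). Lck, the kinase of that receptor, had 25 counts in Control and 0 in the combination, so the markers did not go 1 way. Tigit, an inhibitory receptor, had 0 counts in Control and 258 to 533 in each other library, and its values are given as listed.

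Red cell RNA was lower. Of 16 tested markers, 13 were at least 2-fold lower (81.2%), 13 were lowest of 6 (81.2%), and the median was -1.22. It was 0.95 in Dox, -0.09 in the lower-dose combination, -0.48 with Rh2 alone at 20 mg/kg and -0.16 with Rh2 alone at 30 mg/kg. The summed normalized counts were 160214 in the combination, 343172 in Control and 952747 in Dox. Slc4a1, the band 3 anion exchanger of the red cell membrane, had 1797 counts in Control, 942 with Rh2 alone at 20 mg/kg, 2078 with Rh2 alone at 30 mg/kg, 4228 in Dox, 1795 in the lower-dose combination and 192 in the combination (-3.28 [-3.51, -3.07]). The combination thus stood far below the other 5 libraries for this gene.

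The globins differed less. Hba-a1, an alpha globin, had 99346 counts in Control, 77286 with Rh2 alone at 20 mg/kg, 100982 with Rh2 alone at 30 mg/kg, 273474 in Dox, 178496 in the lower-dose combination and 49673 in the combination (-1.06 [-1.08, -1.05]), and Hbb-bs, a beta globin, had a ratio of -1.03 [-1.05, -1.01]. Copies of the globin genes share sequence, so their counts are not independent. Alas2, the first enzyme of haem synthesis in red cells, had 16052 and 4645 (-1.85) and Rhag, a blood group channel, had 117 and 0, at least 40.7-fold lower with the 0 set to 3 counts (the 95% interval reached up to a log2 ratio of -5.03). Platelet markers were low in both libraries of the pair and with Rh2 alone at 20 mg/kg. The median of 16 was -0.24 in the combination and -0.26 with Rh2 alone at 20 mg/kg. It was 0.88 with Rh2 alone at 30 mg/kg, 2.71 in Dox and 3.37 in the lower-dose combination. Young red cells and their precursors may also carry division genes. The G2/M and red cell medians were -1.89 and -1.22 in the combination, -0.81 and 0.95 in Dox, and -1.11 and -0.09 in the lower-dose combination. The part of red cell RNA in the G2/M ratios was not tested.

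Of 40 endothelial genes, 6 were at least 2-fold lower (15.0%) and 0 higher, with a median of -0.17. Aplnr, the apelin receptor of growing vessels, had 5100 counts in Control, 4251 with Rh2 alone at 20 mg/kg, 4935 with Rh2 alone at 30 mg/kg, 2031 in Dox, 2303 in the lower-dose combination and 1149 in the combination (-2.21 [-2.30, -2.12]). Sele and Selp, the selectins that catch leukocytes on inflamed vessels, had 271 and 63 (-2.16 [-2.59, -1.77]) and 245 and 86 counts (-1.57 [-1.94, -1.21]). Esm1, a marker of vessel tips, had 271 and 108 (-1.38 [-1.72, -1.06]). Of 15 genes of smooth muscle and pericytes, 1 was at least 2-fold lower (6.67%, near the 6.85% over all genes) and 0 higher, 5 were above Control, and the median was -0.07. Acta2, smooth muscle actin and a marker of myofibroblasts, had 21968 and 12127 counts (-0.92 [-0.95, -0.89]), with 15730 to 20744 in the others, and Cnn1, calponin, had 235 and 89 (-1.46 [-1.83, -1.10]). Rgs5, of pericytes, and Des, desmin, were highest of 6 in the combination, with ratios of 0.36 and 0.32.

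A few single genes lay outside these lists. Mid1, a ubiquitin ligase bound to microtubules, had 1187 to 1797 counts in 5 libraries and 15431 in the combination (3.04 [2.97, 3.11]). Mid1-ps1, a pseudogene of it that the annotation puts on the Y chromosome, had 159 to 436 and 5139 (3.59 [3.44, 3.74]). Reads of Mid1 and its copy cannot be told apart with certainty, and in female mice the Y copy is not present, so the 2 values are best read as 1. Mid1 spans chrX:169685199-169990798 in GRCm38.p6. Pkdrej, a sperm protein gene on chromosome 15, was likewise high in this library alone, with 675 to 872 counts in 5 libraries and 4369 in it (2.45 [2.34, 2.57]).

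Lvrn, an aminopeptidase, had 372 counts in Control, 860 with Rh2 alone at 20 mg/kg, 666 with Rh2 alone at 30 mg/kg, 1710 in Dox, 1961 in the lower-dose combination and 3584 in the combination (3.21 [3.05, 3.37]), the largest difference upward among genes with at least 20 counts in both libraries after Mid1-ps1. Control was the lowest, and each doxorubicin library was above each library without it. Ptgds, prostaglandin D synthase, had 8196 counts in Control and 24694 in the combination (1.53 [1.49, 1.57]), and Pik3r1, the regulatory subunit of PI3 kinase, 10489 and 24671 (1.17 [1.14, 1.21]). Mnd1, a protein of meiotic recombination, was split differently, with 1815 counts in Control and 1968 in Dox but 160 in the combination, 192 with Rh2 alone at 20 mg/kg, 270 in the lower-dose combination and 436 with Rh2 alone at 30 mg/kg. The 4 libraries with Rh2 were the 4 low ones.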

How the data were processed

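RNA of hearts was sequenced in 6 libraries, 1 a condition, each pooled from 5 mice, made with a SureSelect XT RNA Direct kit. Per the submitters' processing notes, the tools were bcl2fastq 2.20.0, Trimmomatic, HISAT2 2.1.0 and StringTie 2.1.3b, with the build mm10. The authors deposited whole-number read counts per gene, not normalized, which were used here. FPKM values, which the authors deposited as scaled by transcript length and library size, served as an alternative only, and the TPM values deposited by the authors were not used. StringTie estimates counts from assembled coverage, so a count of 0 can be a failed assignment.

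Libraries were grouped by their labels. Genes averaging 10 or more counts were kept, TMM factors came from edgeR 4.0.16 in R 4.3.3, and log2 ratios used normalized counts with a prior count of 0.5. The 95% intervals are Clopper-Pearson (scipy 1.17.1), and a count of 0 was set to a limit of 3 for bounds. With 1 library a condition no p-value was computed. The 49 gene lists and the members of the comparison were chosen with earlier results of these data known. Genes named are, from each list, up to 4 with the largest ratios in the direction of its median and up to 2 in the other, with a mean of at least 50 counts; the 10 largest differences each way with at least 20 counts in both libraries; the 5 most abundant genes 2-fold different each way; genes the study names with an RNA level; and cell type markers. The alternatives were DESeq2 1.42.0 size factors, library totals, a prior count of 2, FPKM plus 1, no filter, a mean of at least 100 counts, counts above 0 in each library, and the whole interval past 2-fold. The steps were tested on simulated counts. RefSeq promoter windows were matched by gene identifier for the shares and by symbol for the printed sequences. Values of some genes that the rule names are not reported here.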

Additional observations from a re-analysis of the deposited data

How the results depend on the processing

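DESeq2 size factors, library totals and a prior count of 2 left both counts of 2-fold genes within 1.5 times, and the largest shift of a list median under size factors was 0.01. Filters on the mean count, FPKM plus 1 and the whole interval moved the counts by more than 1.5 times, and a count above 0 in every library did not. The 748 genes at least 2-fold higher became 2743 with no filter on low counts, 176 with a mean of at least 100, 290 with the whole interval past 2-fold and 70 with FPKM plus 1, and the 1255 lower became 2820, 551, 600 and 124. A pseudocount of 1 FPKM is large beside low genes, so it draws their ratios toward 0. Under it the medians were -0.49 for G2/M phase, -0.21 for kinetochore, -0.19 for S phase, -0.33 for immediate early genes, 0.48 for glucocorticoid targets (0.66 with a mean of at least 100), -0.37 for collagens, -0.25 for fibrosis, -0.57 for type I interferon genes, -0.19 for chemokines, -0.36 for macrophage markers and -0.92 for red cell markers. No list median of these changed sign under the alternatives run. Of all 49 lists, 2 medians changed sign with FPKM plus 1 (the atrial list and metalloproteinases and Timps, both near 0), 1 with library totals (the latter), 2 with no filter (neuregulin and ErbB, and skeletal muscle, from -0.30 to 0.11), 3 with a mean of at least 100 (neuregulin and ErbB, T and NK cells, from -0.25 to 5.27 over the 2 genes left, and white fat, from 0.00 to -1.09) and 1 with counts above 0 in each library (white fat). With FPKM plus 1, 172 of 294 ratios of single genes moved outside their counting interval and 3 changed sign. Under it Top2a stood at -1.68, Mki67 at -2.57 and Oas1a at 1.62. Others shrank further, with Bub1 at -0.59, Kif2c at -0.43, Cx3cr1 at -0.66, Mmp8 at 0.52 and Tigit at 0.15. Left out of the ranking after the data were seen, the Rh2-30 mg/kg library changed the share of all genes at their lowest in Rh2-30 mg/kg + Dox from 23.1% of 6 libraries to 26.2% of 5.

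No paired analysis was possible because the 2 groups compared had 1 library each, and for the same reason no fit without a replicate was run. A fit of doxorubicin over all 6 libraries by Rh2 dose would answer another comparison and was not run. Differences between mice and between dissections are not measured, and genes with few counts have wide intervals.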

Other observations

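Further lists with less difference were as follows. Of 20 iron handling genes, 1 was at least 2-fold higher (5.0%) in the combination (Rh2-30 mg/kg + Dox) and 0 lower, with a median log2 ratio of -0.11. Slc25a37, the mitochondrial iron importer of red cell precursors, had 3516 counts in Control, 10847 in Dox and 1975 in the combination (-0.89 [-0.97, -0.81]), with the most in Dox and the least in the combination. Tfrc, the transferrin receptor, had 14954 and 10287 (-0.60 [-0.64, -0.56]), and Control was its highest library. Of 27 genes of cholesterol and lipid synthesis, 1 was 2-fold higher (3.7%) and 1 lower (3.7%), with a median of -0.17. Sqle, squalene epoxidase, had 128 and 57 counts (-1.22 [-1.70, -0.77]), while Mvd, an earlier enzyme of the same pathway, had 145 and 318 (1.07 [0.78, 1.37]).

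Of 21 clock genes, 1 was 2-fold higher (4.76%) and 0 lower, with a median of 0.06. Per2, a repressor of the clock, had 11763 counts in Control, 21211 in Dox, 17969 in the lower-dose combination and 20625 in the combination (0.75 [0.72, 0.78]). The hours at which hearts were taken are not given in the sources used here. Neuregulin and ErbB genes had a median of 0.03 over 11, and Erbb2, the receptor HER2, had 2632 and 2102 counts (-0.39 [-0.47, -0.30]). Adrenergic and renin-angiotensin genes had a median of -0.03 over 16, with Adrb1, the main beta-adrenergic receptor of the heart, at 1010 and 976 (-0.11 [-0.24, 0.02]). Skeletal muscle markers had a median of -0.30 over 12, Schwann cell markers -0.29 over 10, brown fat markers 0.25 over 14 and epidermis markers -0.15 over 4.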
